A study of Mus musculus with 12 samples.

Results

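The Schlafen genes are a mouse family whose name comes from the German word for sleeping, given for the growth arrest that its founding member caused in thymocytes. The short members, Slfn1 and Slfn2, hold little more than the conserved core of the family, Slfn3 and Slfn4 are of intermediate length, and Slfn5, Slfn8 and Slfn9 carry in addition a helicase-like C-terminal part. Several members are known as interferon-inducible genes of myeloid cells, and cleavage or protection of transfer RNA has been described for some of them. The 7 genes followed here, Slfn1, Slfn2, Slfn3, Slfn4, Slfn5, Slfn8 and Slfn9, were chosen by symbol from the count tables, in which 18719 genes are listed for unstimulated or LPS-stimulated cells. Of the 7, 6 have a row in both tables. Slfn1 has a row only after LPS.

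RNA was sequenced from J774A.1 cells, a mouse macrophage line. WT lines had received a vector that carries Cas9 and GFP but no guide, and ACAT1 KO lines the same vector with a guide to an exon of Acat1. ACAT1 is a mitochondrial thiolase that acts late in the breakdown of fatty acids, ketone bodies and isoleucine. Edited cells were sorted by GFP and grown as clonal populations, and a group here is 3 lines of 1 genotype, either unstimulated or given 100 ng/ml LPS, the bacterial ligand of TLR4, for 2 hours, which makes 12 libraries. All groups thus share the parental line and the Cas9 vector, and differences between clones cannot be told apart from the genotype beyond the spread of 3 lines.

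Each library held from 56948593 to 167280149 counts. Acat1 checked the labels by its CPM, the count relative to the library's size after TMM normalization. It was at 108, 107 and 80.8 CPM in the 3 unstimulated WT libraries and at 28.9, 25.5 and 26.1 CPM in the ACAT1 KO libraries. After LPS it was at 85.4, 95.4 and 65.0 CPM in WT and at 19.9, 18.5 and 18.9 CPM in ACAT1 KO. All 10 macrophage markers examined, among them Csf1r, Adgre1 and Itgam, were listed in every group, with summed levels of 9593 to 12220.2 CPM. Of the 5 T cell markers only Lck was listed, at 5.19 to 10.99 CPM, and no NK cell or epithelial marker was. Single markers of B cells (Cd79a) and neutrophils (S100a8) and 2 of dendritic cells (Xcr1 and Zbtb46) were listed, each list summing to at most 5.49 CPM. The fibroblast marker Pdgfra was at 1.14 to 1.67 CPM in unstimulated cells of either genotype, and with LPS at 5.53 to 6.48 CPM in WT and 11.3 to 12.95 CPM in ACAT1 KO, while Col1a1 was listed only after LPS, at no more than 0.162 CPM. In bulk RNA, fewer cells of a kind and less RNA per cell cannot be told apart. The unstimulated WT replicates 1 and 2 and ACAT1 KO replicate 2 placed 0.107% to 0.129% of counts on noncoding genes that sit opposite an exon, where 0.0702% to 0.0937% was found in the other 9 libraries. The fits of the members that rest on unstimulated libraries are also given without these 3 antisense-rich libraries.

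The 7 genes lie together on chromosome 11 of GRCm38, within 263.806 kb at chr11:82951349-83215154. In the order of the chromosome they are Slfn5 on the plus strand, Slfn9 and Slfn8 on the minus strand, then Slfn2, Slfn1, Slfn4 and Slfn3 on the plus strand. A transcribed pseudogene, Slfn10-ps, sits between Slfn8 and Slfn2 on the minus strand and is listed in both tables. The annotated genes Slfn14 and Slfnl1 have no row in either table. The coding parts form pairs by likeness, with 92.71% identical bases between Slfn8 and Slfn9 and 92.72% between Slfn3 and Slfn4, against 63.19% to 77.02% for every other pair. Reads from stretches that Slfn8 and Slfn9 share could be counted for either. Slfn3 and Slfn4 have no 100-base window of their transcripts in common, but each shares windows with the nearby gene Gm11427. Of all 100-base windows in the transcripts of a member at most 3.706% recur in another gene, and none of those of Slfn1 do. Slfn5 shares 559 bases of its exons with the antisense gene Slfn5os, which has no row, and whether the counting used strand is not given in the sources used here.

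Interferon acts on many of its target genes through the interferon-stimulated response element (ISRE), a site bound by proteins of the IRF family. The core GAAANNGAA, searched on both strands in the RefSeq windows of 250 bases before to 50 bases after each start on GRCm38.p6, was found in the windows of Slfn5, Slfn8 and Slfn9, and in those of none of the other 4 members. It stands in 8.56% of the 32851 windows of all genes. The stretches around the matches are shown because they set these 3 members apart from the others of the cluster. They are written along the strand of the gene, with the matched bases in capitals.
Slfn5, chr11:82951917-82951985, plus strand: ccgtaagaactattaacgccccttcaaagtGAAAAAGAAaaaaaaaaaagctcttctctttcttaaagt
Slfn5, chr11:82951940-82952008, plus strand: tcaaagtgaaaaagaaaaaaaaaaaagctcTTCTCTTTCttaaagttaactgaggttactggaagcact
Slfn8, chr11:83020819-83020887, minus strand: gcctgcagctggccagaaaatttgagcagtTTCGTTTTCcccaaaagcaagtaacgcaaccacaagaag
Slfn9, chr11:82991836-82991904, minus strand: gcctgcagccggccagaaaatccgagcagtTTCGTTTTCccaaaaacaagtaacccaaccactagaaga
The matched letters begin 155 and 132 bases before the start of Slfn5, 47 bases before that of Slfn8 and 44 bases before that of Slfn9, and the matches do not overlap each other. The Slfn8 and Slfn9 stretches hold the same matched bases, and 62 of their 68 aligned bases are identical. The NF-kappa-B site stands in 8.459% of all windows. It was found 214 bases before the start of Slfn9, with no overlap with the other match there, and 43 bases before that of Slfn1. For Slfn1 alone, the bases after the RefSeq start were not found in the annotated transcript, so its window is less certain. A match describes the letters of a window and not a bound site.

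Levels of different genes were compared as CPM per kb of exon. In unstimulated WT cells Slfn2 stood highest, at 93.2 ± 12.8 CPM per kb (SD, n = 3), and Slfn4, a gene of myeloid cells, followed at 81.9 ± 9.93, with overlapping libraries. Next came Slfn9 at 12.8 ± 1.16 and Slfn8 at 10.8 ± 0.887, again overlapping. Slfn3 was at 5.82 ± 0.509 CPM per kb and Slfn5 at 0.296 ± 0.0639, each apart from its neighbour in the order. The order was the same in unstimulated ACAT1 KO cells. After LPS, Slfn2 in WT cells reached 917 ± 17.6 CPM per kb, 5.77 times the level of Slfn4 at 159 ± 31.1, and Slfn8 at 129 ± 15.1 had moved ahead of Slfn9 at 57.1 ± 10.2. The lowest were Slfn3 at 12.6 ± 1.1002, Slfn5 at 3.28 ± 0.4996 and Slfn1 at 1.47 ± 0.393 CPM per kb. Only Slfn4 and Slfn8 among neighbours in this order overlapped, and ACAT1 KO cells had the same order after LPS, there with no overlap between neighbours. Summed over the 6 genes with a row in both tables, the family made up 622 ± 68.5 CPM in unstimulated WT, 502 ± 33.6 CPM in unstimulated ACAT1 KO, 3089 ± 234 CPM in WT with LPS and 3429 ± 333 CPM in ACAT1 KO with LPS (SD, n = 3 each).

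**Figure D1:**
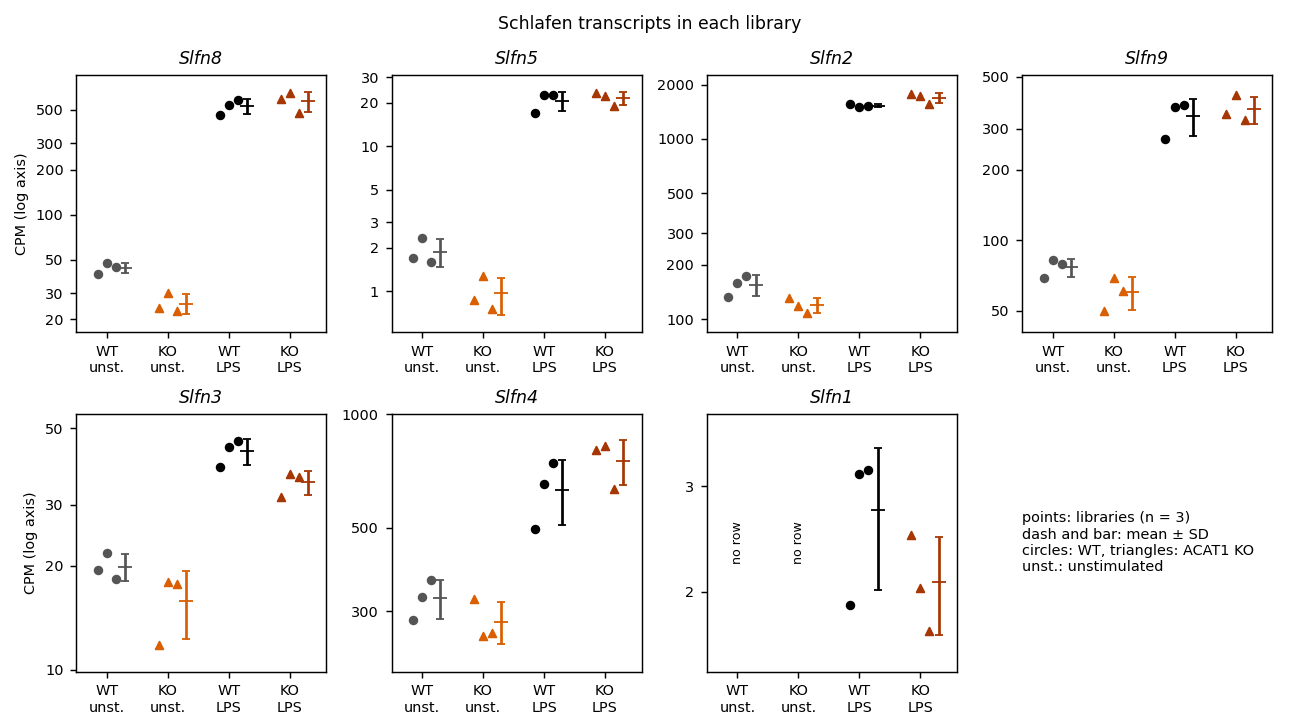
CPM of each member (log axes, each panel with its own range) in the 12 libraries, by group. Points are libraries, and a dash with a bar is the mean ± SD of 3; in Slfn8 the unstimulated ACAT1 KO libraries, at 22.8 to 30.03 CPM, lie below the WT libraries at 40.3 to 47.6, and both LPS groups lie at 463 to 647. Slfn1 has no row in unstimulated cells.

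LPS raised every member that could be tested, in both genotypes. Slfn8, Slfn5 and Slfn2 rose most, by 9.83-fold to 22.7-fold, Slfn9 rose less, and Slfn3 and Slfn4 rose least. By the quasi-likelihood test of edgeR, adjusted by Benjamini and Hochberg, 6 of 6 members passed an adjusted p under 0.05 as higher in WT, where 29.3% of all 16535 genes did, and 6 of 6 in ACAT1 KO, where 29.5% of all genes did. The median log2 fold change of the 6 was 2.73 in WT and 3.21 in ACAT1 KO, beside -0.02 and -0.03 over all genes. Upper-quartile scaling moved the median of all genes to -0.23 in WT and -0.17 in ACAT1 KO, and all 6 members remained higher in both genotypes under it. Without the 3 antisense-rich libraries all 6 were also called higher in both genotypes, with log2 fold changes from 0.77 (Slfn4) to 3.67 (Slfn5) in WT, where 1 unstimulated library was left and its spread was assumed to be that of the other groups, and from 1.25 (Slfn3) to 4.75 (Slfn5) in ACAT1 KO.

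Slfn8, a long member with the helicase-like part, was at 40.3, 47.6 and 44.5 CPM in unstimulated WT and at 463, 537 and 586 CPM with LPS. In ACAT1 KO it was at 23.8, 30.03 and 22.8 CPM unstimulated and at 592, 647 and 474 CPM with LPS. The libraries of the states were far apart in both genotypes. The fold was 11.98 in WT (log2 fold change 3.58, SE 0.15, adjusted p = 3.3e-09 by edgeR) and 22.4 in ACAT1 KO (log2 fold change 4.48, SE 0.16, adjusted p = 6.6e-10 by edgeR).

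Slfn5, a nuclear member of the long group, was the lowest of those with a row in both states. It was at 1.68, 2.33 and 1.59 CPM in unstimulated WT and at 17.1, 22.5 and 22.6 CPM with LPS, on 91 to 197 counts in any unstimulated library. In ACAT1 KO it was at 0.861, 1.27 and 0.752 CPM unstimulated and at 23.4, 22.5 and 19.1 CPM with LPS. Again no LPS library came near an unstimulated one. Slfn5 rose 11.2-fold in WT (log2 fold change 3.48, SE 0.21) and 22.7-fold in ACAT1 KO (log2 fold change 4.50, SE 0.22), with adjusted p = 5.6e-08 and 8.9e-09 by edgeR.

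Slfn2, the short member that keeps T cells quiescent and shields transfer RNA from cleavage in them, was at 132, 159 and 174 CPM in unstimulated WT and at 1552, 1494 and 1529.5 CPM with LPS. In ACAT1 KO the values were 130.3, 119 and 108 CPM unstimulated and 1773, 1723 and 1561 CPM with LPS. Every LPS library lay far above every unstimulated one. The fold was 9.83 in WT (log2 fold change 3.30, SE 0.11) and 14.2 in ACAT1 KO (log2 fold change 3.82, SE 0.11), with adjusted p = 6.8e-10 and 2.6e-10 by edgeR.

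Slfn9, whose coding part is the closest to that of Slfn8, rose less. It was at 68.8, 82.1 and 78.9 CPM in unstimulated WT and at 271, 371 and 380.3 CPM with LPS. In ACAT1 KO it was at 49.9, 68.9 and 60.7 CPM and then at 346, 418 and 326 CPM. The states did not overlap, and the step between them was smaller than that of Slfn8 in either genotype. Its folds were 4.45 in WT (log2 fold change 2.15, SE 0.16) and 6.08 in ACAT1 KO (log2 fold change 2.60, SE 0.16), with adjusted p = 2.7e-07 and 5.4e-08 by edgeR.

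The intermediate pair rose about as much as each other. Slfn4 was at 284, 327 and 363 CPM in unstimulated WT, 497, 654 and 739.9 CPM in WT with LPS, 323, 258 and 263 CPM in unstimulated ACAT1 KO, and 801, 822 and 633 CPM in ACAT1 KO with LPS. It rose 1.94-fold in WT and 2.67-fold in ACAT1 KO (adjusted p = 0.00022 and 8.6e-06 by edgeR). No unstimulated library reached the lowest LPS library of its genotype. Slfn3, the other member of intermediate length, was at 19.5, 21.8 and 18.4 CPM in unstimulated WT and 38.7, 44.1 and 45.9 CPM with LPS. In ACAT1 KO it was at 11.8, 17.98 and 17.7 CPM and then 31.6, 36.8 and 36.2 CPM. Its states were also apart. The folds of Slfn3 were 2.16 in WT and 2.20 in ACAT1 KO (adjusted p = 3.6e-05 and 2.7e-05 by edgeR).

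**Figure D2:**
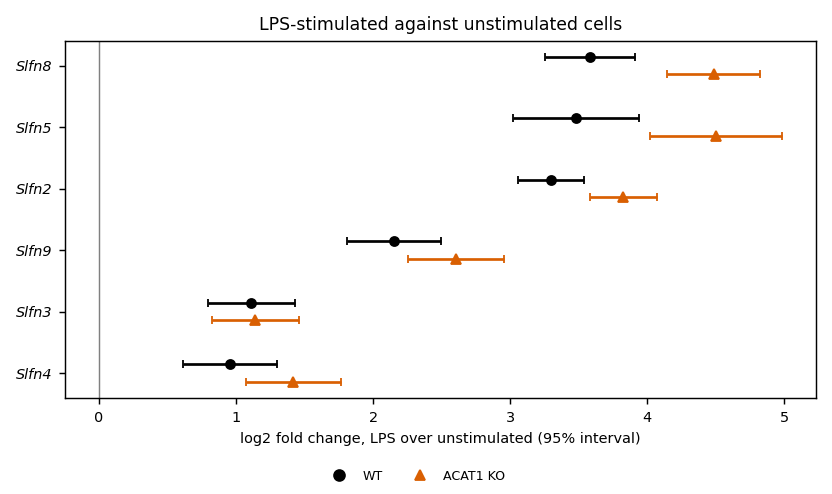
Log2 fold change of LPS-stimulated over unstimulated cells (x axis) for the 6 members with a row in both tables, in WT (circles) and ACAT1 KO (triangles). Bars are 95% intervals of the edgeR fit over all 12 libraries; all lie above 0, from 0.96 for Slfn4 in WT to 4.50 for Slfn5 in ACAT1 KO.

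Slfn1, the founding growth-arrest gene, was seen only with LPS. It was at 1.90, 3.14 and 3.19 CPM in WT and at 2.49, 2.03 and 1.72 CPM in ACAT1 KO, on 162 to 483 counts per library. The genotypes overlapped. The tables list no gene with fewer than 5 libraries at 4 counts or more in that state, and no fold is given for Slfn1. The pseudogene Slfn10-ps, which lies beside Slfn8 and shares sequence with it and Slfn9, was at 17.2, 21.2 and 12.8 CPM in unstimulated WT and 43.4, 52.4 and 47.3 CPM with LPS. In ACAT1 KO it was at 8.02, 12.6 and 11.3 CPM and then at 39.9, 42.1 and 36.02 CPM. It rose 2.80-fold in WT and 3.70-fold in ACAT1 KO (adjusted p = 2.6e-05 and 3.4e-06 by edgeR).

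Without stimulation, the Schlafen genes were lower in ACAT1 KO than in WT cells, 6 of 6 by the sign of the fold, but Slfn8 alone passed the adjusted threshold. This comparison asks how resting ACAT1 KO lines differ from resting WT lines. Of the 6 members tested, 1 was called lower at an adjusted p under 0.05, where 1.17% of all 16440 genes were, and 4 were lower at an unadjusted p under 0.05, where 9.93% of all genes were. Their median log2 fold change was -0.36, beside 0.00 over all genes. In 4 members, Slfn8, Slfn5, Slfn2 and Slfn3, the highest ACAT1 KO value was under the lowest WT value, as in 13.2% of all genes.

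The fall of Slfn8, from 44.1 ± 3.63 to 25.5 ± 3.93 CPM (SD, n = 3), was 1.72-fold (log2 fold change -0.78, SE 0.12, adjusted p = 0.0403 by edgeR). The call was close to the threshold: it was kept without ACAT1 KO replicate 2 and lost when any 1 of the other 5 libraries was left out, with adjusted p of 0.0525 to 0.152 by edgeR, while the log2 fold change stayed between -0.91 and -0.70. Without the 3 antisense-rich libraries, an alternative chosen after seeing the data, the log2 fold change was -0.94. That fit holds 1 WT library against 2 ACAT1 KO libraries, with the spread taken from the latter alone, so no p is given for it. Within those 3 libraries the ratio of ACAT1 KO to WT was 0.684 and within the other 3 it was 0.523.

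Slfn5 differed by more on the log2 scale than Slfn8, -0.95, with a wider 95% interval from -1.59 to -0.31 and an adjusted p of 0.124 by edgeR. Slfn2 differed by -0.37 (interval -0.65 to -0.10, unadjusted p = 0.0157 by edgeR) and Slfn9 by -0.35 (interval -0.66 to -0.04, unadjusted p = 0.0325 by edgeR), and neither passed the adjusted threshold. For Slfn9 the highest ACAT1 KO library, at 68.9 CPM, was level with the lowest WT library. For Slfn3 (-0.32, interval -0.72 to 0.09) and Slfn4 (-0.20, interval -0.49 to 0.09) the interval included 0. With 1 library left out the difference ran from -0.42 to -0.16 for Slfn3 and from -0.32 to -0.11 for Slfn4. Without the 3 antisense-rich libraries it was -0.99 for Slfn5, -0.55 for Slfn2, -0.52 for Slfn9, -0.32 for Slfn3 and -0.31 for Slfn4. Of the 10 macrophage markers, 4 were higher and 2 lower in unstimulated ACAT1 KO with no overlap between the genotypes. Of all genes, 13.2% were lower without overlap, and the share that were higher is not given. Lyz2, the most abundant of the 4, was at 5805 to 6511 CPM in WT and 6587 to 7413 CPM in ACAT1 KO. The 2 lower ones were Fcgr1, at 119.8 to 123 against 71.8 to 77.7 CPM, and Adgre1, at 64.8 to 82.4 against 37.7 to 45.5 CPM. The part of these markers in the result was not tested. Slfn10-ps was at a log2 fold change of -0.67 (unadjusted p = 0.0230, adjusted p = 0.182 by edgeR). Without the 3 antisense-rich libraries it was at -0.41.

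DESeq2 and a fit over all 12 libraries each called 3 members lower in unstimulated ACAT1 KO cells, Slfn8, Slfn5 and Slfn2. Of all genes with an adjusted p, 6.55% were called lower by DESeq2 and 4.58% by the fit over all 12 libraries, against the 1.17% above.

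After LPS the genotypes were close. No member passed the adjusted threshold by edgeR, where 15.1% of all 16483 genes did in either direction, and 2 of 7 had an unadjusted p under 0.05, where 31.3% of all genes did. DESeq2 called 1 member, Slfn3, as lower, where it called 11.6% of all genes lower, and limma-voom called none. The median log2 fold change was 0.11, beside -0.00 over all genes. In Slfn3, every ACAT1 KO library was below every WT library (log2 fold change -0.28, unadjusted p = 0.0130, adjusted p = 0.0698 by edgeR), and in Slfn2 every ACAT1 KO library was above every WT library (log2 fold change 0.16, unadjusted p = 0.0387, adjusted p = 0.136 by edgeR). Groups that do not overlap in one direction or the other were found for 37.8% of all genes. Slfn8 differed by 0.13 (95% interval -0.15 to 0.42), Slfn5 by 0.08 (-0.20 to 0.36), Slfn9 by 0.11 (-0.21 to 0.44), Slfn4 by 0.27 (-0.07 to 0.62) and Slfn1 by -0.39 (-0.90 to 0.12) on the log2 scale. With the replicate number as a block, Slfn3 passed the adjusted threshold, at a log2 fold change of -0.28, where 8.44% of all genes were called lower.

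**Figure D3:**
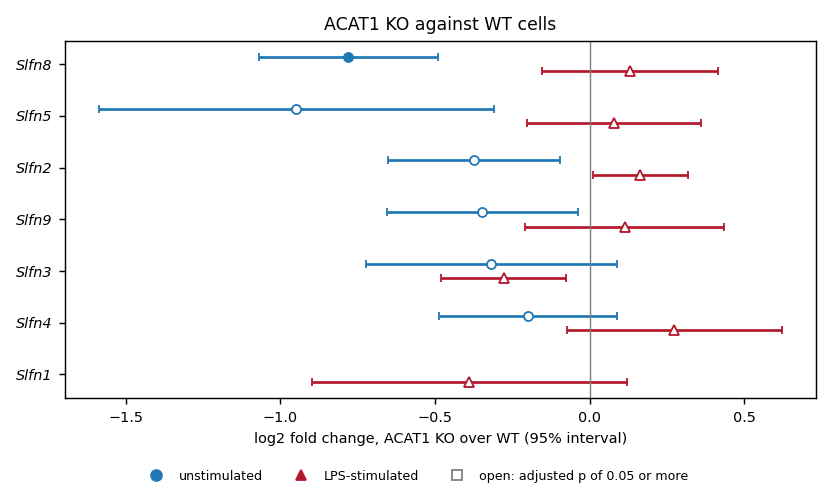
Log2 fold change of ACAT1 KO over WT (x axis) in unstimulated (circles) and LPS-stimulated cells (triangles), with 95% intervals of the edgeR fits of each state. Filled symbols passed an adjusted p under 0.05; in unstimulated cells all 6 members lie below 0, and Slfn8 at -0.78 is the filled one, while after LPS the values run from -0.39 to 0.27.

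The interaction asks whether the genotype difference changed with LPS, which is the same as asking whether the LPS response differed between genotypes. It was positive in 6 of 6 members by sign, that is, the fold with LPS was larger in ACAT1 KO, although for Slfn3 the sign turned under several alternatives, with a median of 0.49 on the log2 scale beside -0.04 over all genes. By edgeR no member passed the adjusted threshold, which 0.187% of all 16535 genes did, and 3 members had a positive value with an unadjusted p under 0.05, which 3.28% of all genes did. limma-voom called none of the 6 and DESeq2 called 3 as positive, Slfn8, Slfn5 and Slfn2, where it called 1.16% of all genes positive. Slfn8 was at 0.90 (SE 0.19, adjusted p = 0.0948), Slfn5 at 1.02 (SE 0.28, adjusted p = 0.192) and Slfn2 at 0.53 (SE 0.14, adjusted p = 0.186), all by edgeR. Without the 3 antisense-rich libraries the interaction was 1.08 for Slfn8, 1.08 for Slfn5 and 0.73 for Slfn2. It was 0.64 for Slfn9, 0.60 for Slfn4 and 0.055 for Slfn3. That fit holds 1 unstimulated WT library, whose spread was assumed to be that of the other groups, so no calls are counted from it here.

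The replicate number appeared to mark the same line before and after LPS, although the labels do not state it. With the line as a block, Slfn8 passed the adjusted threshold for the interaction (0.90, SE 0.10, adjusted p = 0.0066 by edgeR). It was the 1 member of 6 called positive, where 0.835% of all genes were. At an unadjusted p under 0.05, 5 of 6 members were positive, where 4.78% of all genes were. The adjusted p with the block was 0.0506 for Slfn5, 0.0596 for Slfn2, 0.0922 for Slfn9 and 0.102 for Slfn4 by edgeR. Slfn3 stood at 0.05 with an interval from -0.26 to 0.36.

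The ratio of LPS to unstimulated CPM within a line shows the same pattern by member. For Slfn8 it was 11.5, 11.3 and 13.2 in the WT lines and 24.9, 21.5 and 20.8 in the ACAT1 KO lines. For Slfn5 it was 10.1, 9.64 and 14.2 in WT and 27.1, 17.6 and 25.4 in ACAT1 KO. The genotypes were apart in 5 members, Slfn8, Slfn5, Slfn2, Slfn9 and Slfn4, with every ACAT1 KO ratio above every WT ratio, which held for 6.86% of all genes. In Slfn3 they overlapped, at 1.99, 2.03 and 2.50 in WT and 2.69, 2.04 and 2.04 in ACAT1 KO. These ratios rest on the same unstimulated libraries as the comparison of resting cells, and are no separate evidence of it.

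**Figure D4:**
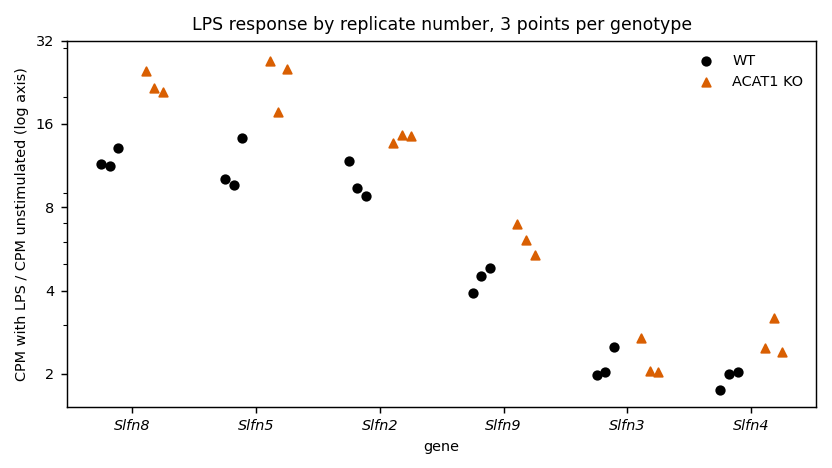
Ratio of CPM with LPS to CPM unstimulated (log axis) for each line, paired by replicate number, in WT (circles) and ACAT1 KO (triangles). Each point is 1 of 3 lines of a genotype; for Slfn8 the WT lines lie at 11.3 to 13.2 and the ACAT1 KO lines at 20.8 to 24.9, and for Slfn3 the genotypes overlap.

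Type I interferon signalling, the pathway that runs from TLR4 through TBK1 and IRF3 to interferon-beta and on through its receptor, is the setting in which these genes are usually read. Of 20 genes of this pathway tested in unstimulated cells, 3 were lower in ACAT1 KO and none was higher by edgeR at the adjusted threshold. Of all genes, 1.17% were lower and 0.742% higher at that threshold. An unadjusted p under 0.05 was reached by 2 higher and 8 lower genes of the 20. Among all 16440 genes it was reached by 1599 higher and 1633 lower ones. The median log2 fold change of the 20 was -0.07. The 3 were Usp18, the protease that removes ISG15 and damps the interferon receptor, at -1.76 (adjusted p = 0.0215 by edgeR), Stat2 at -1.15 (adjusted p = 0.0344 by edgeR) and the kinase gene Tbk1 at -0.35 (adjusted p = 0.0442 by edgeR). Irf7 was at -1.31, with adjusted p = 0.0766 by edgeR. After LPS, 3 of 21 were higher, where 5.93% of all genes were, and 4 were lower, where 9.12% were. Ifnb1, the gene of interferon-beta, has a row only after LPS and was among the 3, at 39.0 ± 15.2 CPM in WT and 93.2 ± 29.9 CPM in ACAT1 KO (SD, n = 3, adjusted p = 0.0312 by edgeR). So was Cd14, at a log2 fold change of 0.40 (adjusted p = 0.0074 by edgeR). Among the 4 lower ones were Traf3 at -0.62, Tbk1 at -0.41 and Ifnar1 at -0.28, with adjusted p = 0.0037, 0.0063 and 0.0197 by edgeR.

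Of 30 interferon-stimulated genes tested, a list that holds no Schlafen gene, 27 were lower in unstimulated ACAT1 KO by the sign of the fold, 24 at an unadjusted p under 0.05 and 6 at an adjusted p under 0.05 by edgeR, where 9.93% and 1.17% of all genes were. Their median log2 fold change was -0.70, beside -0.36 for the Schlafen genes. Among the 6 were Dhx58 and Ddx58, sensors of viral RNA, at -0.68 and -0.83, and Cmpk2 at -1.49. After LPS 1 of the 30, Ifih1, was higher and none was lower by edgeR, where 5.93% and 9.12% of all genes were. All 30 rose with LPS in both genotypes, where 29.3% of all genes did in WT and 29.5% in ACAT1 KO, by a median log2 fold change of 3.26 in WT and 4.11 in ACAT1 KO. The interaction was positive in all 30. None passed the adjusted threshold in the fit without the line block, where 20 had an unadjusted p under 0.05, and 21 passed with the block, against 3.28% and 0.835% of all genes. The earlier results of these data were known when this list was drawn up, so its direction is a description.

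Genes of growth arrest and transfer RNA cleavage, the processes that Schlafen proteins are known for, were followed as a list. With LPS, 4 of 13 were higher and 9 lower in WT, where 29.3% of all genes were higher and 28% lower. In ACAT1 KO, 3 were higher and 8 lower, where 29.5% of all genes were higher and 31.2% lower. Cdkn1a, the cyclin-dependent kinase inhibitor p21, rose 3.09-fold in WT and 3.06-fold in ACAT1 KO, and Ccnd1, cyclin D1, fell by 2.36 and by 2.49 on the log2 scale. In unstimulated ACAT1 KO cells 1 of the 13 was lower and 1 higher by edgeR, where 1.17% and 0.742% of all genes were. Ccnd2, cyclin D2, was lower, at 81.8 ± 8.68 against 205 ± 34.4 CPM (SD, n = 3, adjusted p = 0.0175 by edgeR), and Cdkn1a was higher, at 422 ± 10.6 against 333 ± 4.05 CPM (SD, n = 3, adjusted p = 0.0403 by edgeR). An unadjusted p under 0.05 was reached by 5 lower and 2 higher genes, and by 1633 lower and 1599 higher of all 16440. Ccnd1 was among the 2, at a log2 fold change of 0.36 (adjusted p = 0.141 by edgeR). After LPS, 7 of the 13 were lower in ACAT1 KO and none was higher by edgeR, where 9.12% of all genes were lower and 5.93% higher. At an unadjusted p under 0.05, 2 of the 13 were higher and 8 lower. Of all 16483 genes, 2327 were higher and 2827 lower at that p. Among the 7 were Myc at a log2 fold change of -0.52, Ccnd2 at -1.38, Rnh1, the inhibitor of the ribonuclease angiogenin that cleaves transfer RNA, at -0.40, the kinase gene Cdk4 at -0.31 and Foxo3 at -0.31.

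The genes around the cluster were examined in the same way. Of the 28 genes tested within 500 kb of the span, 12 were higher and 3 lower with LPS in WT, where 29.3% and 28% of all genes were, and 15 were higher and 3 lower in ACAT1 KO, where 29.5% and 31.2% of all genes were. Those that rose most were chemokine genes at the far end of the window, Ccl5 at a log2 fold change of 9.01 in WT, Ccl4 at 4.40 and Ccl3 at 3.88. Between the Schlafen genes lie the noncoding RNA 1190001M18Rik, at 0.20 in WT (adjusted p = 0.613 by edgeR) and 0.80 in ACAT1 KO (adjusted p = 0.0454 by edgeR), and Gm11425, at 0.58 in WT (adjusted p = 0.0053 by edgeR) and 0.70 in ACAT1 KO (adjusted p = 0.0015 by edgeR). Gm20234, antisense to Slfn2 with no shared exon bases, was at -0.92 in WT (adjusted p = 0.105 by edgeR) and -1.43 in ACAT1 KO (adjusted p = 0.0123 by edgeR). In unstimulated cells none of 26 neighbours passed the adjusted threshold by edgeR, where 0.742% of all genes were higher in ACAT1 KO and 1.17% lower. At an unadjusted p under 0.05, 5 neighbours were higher in ACAT1 KO and none lower. Of all 16440 genes, 1599 were higher and 1633 lower at that p. After LPS, 5 of 29 were higher in ACAT1 KO and none lower, Rffl, Wfdc17, Ccl3, Ccl4 and Ccl6, where 5.93% of all genes were higher and 9.12% lower.

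**Figure D5:**
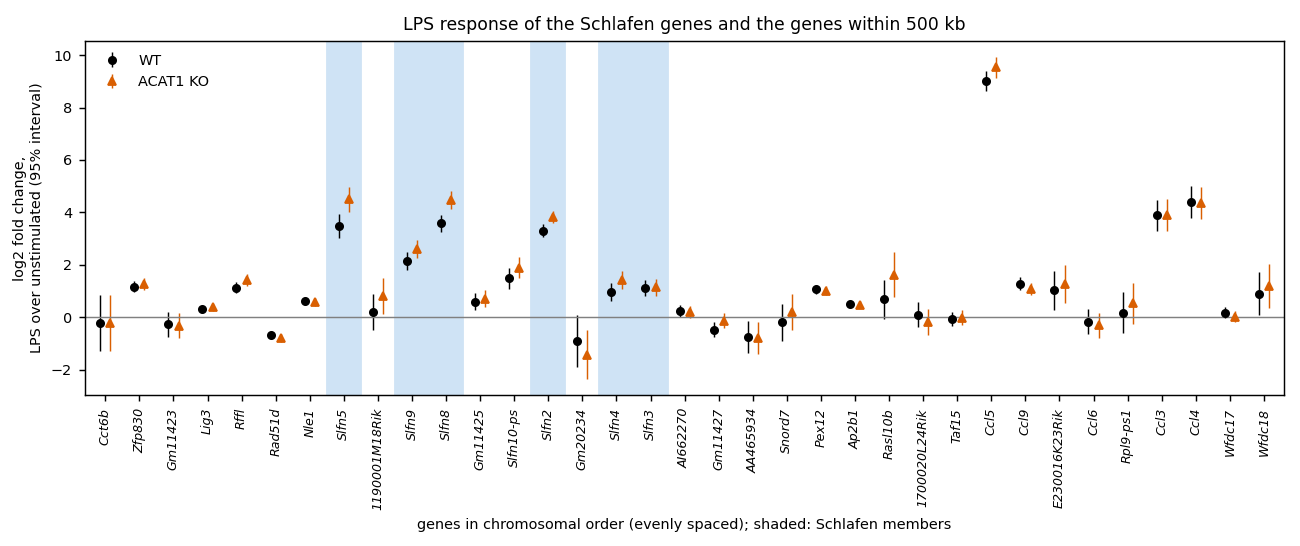
Log2 fold change with LPS (y axis, 95% intervals of the edgeR fit) of the genes tested within 500 kb of the Schlafen span, in chromosomal order with even spacing, in WT (circles) and ACAT1 KO (triangles). Shading marks the Schlafen members; Slfn5, Slfn8 and Slfn2 stand at 3.30 to 3.58 in WT and Ccl5, Ccl3 and Ccl4 stand at 3.88 to 9.01 at the far end of the window.

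Across the 12 libraries, Slfn5 and Slfn8 were nearer to each other than to any of 16529 other genes. The measure was the root mean square difference of log2 CPM after each gene was centred on its own mean, and it was 0.146 for this pair. Among genes outside the family, Dtx3l, an interferon-inducible ubiquitin ligase gene, was the nearest to both, at 0.168 for Slfn8 and 0.207 for Slfn5. Slfn8 was followed by Irgm1 at 0.192, a GTPase gene of the interferon response, and Ifi209 at 0.195, and Slfn5 by AW011738 at 0.209 and Gm43197 at 0.210. Nearest to Slfn9 stood Eif2ak2, the gene of the RNA-activated kinase PKR, at 0.0914, Gbp9 at 0.114 and Adar at 0.123.

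The other members had other neighbours by this measure. Those of Slfn2 were C9orf72 at 0.124, Marcks at 0.128 and Icosl at 0.150. Those of Slfn4 were Mndal at 0.137, Ikzf1 at 0.140 and Whamm at 0.143, and the nearest to Slfn3 were Setd1b at 0.117, Kat6a at 0.131 and Zfp128 at 0.134. Within the pairs that share most of their coding sequence the difference was larger, 0.848 between Slfn8 and Slfn9, with 282 genes outside the family nearer to Slfn8 and 2183 nearer to Slfn9, and 0.340 between Slfn3 and Slfn4, with 1317 nearer to Slfn3 and 1266 nearer to Slfn4. The measure takes in the step between states that all 12 libraries share.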

How the data were processed

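RNA-seq counts of 12 J774A.1 libraries in 4 groups of 3 were analysed, with groups and replicate numbers from the labels. The deposited values are raw counts per gene, whole numbers that the authors did not normalize, in 1 table per state. According to the paper and the labels, reads were trimmed with Trimmomatic 0.33, aligned to GRCm38 with HISAT2 and quantified with StringTie. The step that gave whole counts and its use of strand are not given in the sources used here. The 12 columns of the authors' log2 values were not used. Repeated entries of a gene (59 unstimulated, 57 after LPS, identical counts) were removed, leaving 17544 and 17874 genes, 16699 of them in both. Depth was 56948593 to 167280149 counts.

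Counts were tested with edgeR 4.0.16 in R 4.3.3 by the quasi-likelihood test, two-sided, after filterByExpr and TMM. The genotypes were compared in a separate fit for each state, and LPS and the interaction in a joint fit of the genes in both tables. Benjamini-Hochberg adjustment ran over all genes of a fit, with a threshold of 0.05. Displayed CPM use the TMM factors of the joint fit. Lengths and loci are from the GENCODE annotation of GRCm38, and promoter windows from RefSeq. The fits were tested on simulated data. Pairs of libraries of 1 group differed by more than sampling noise. Nothing beyond the paper's 3 lines per genotype says how far replicates are independent, so p-values measure the spread between these libraries.

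The 7 members and the lists were chosen with earlier results of these data known. Named are all members, Acat1, the other Slfn symbols, up to 5 genes of a list with the smallest p and all signalling genes past the threshold in unstimulated cells, the genes within 500 kb, and the 3 genes most like each member. Values are given for only some genes that this rule covers.

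Unstimulated and LPS libraries with the same number in a genotype were taken as 1 line. Their deviations from the group means correlated from 0.280 to 0.514 over 11737 genes with a mean log2 CPM above 0 and from 0.0913 to 0.307 over all 16535, and those of different numbers from -0.332 to -0.0729 and from -0.214 to 0.0375. Deviations cancel within a group, so the values for different numbers are tied to those for the same number and are no separate evidence. Genes are not independent replicates. The WT and ACAT1 KO libraries share only a number. Unstimulated, their deviations correlated from -0.337 to 0.650 for the same number and from -0.793 to 0.610 for different numbers.

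Alternatives were DESeq2 1.42.0, limma-voom (limma 3.58.1), other normalizations and filters, replicate blocks, a term for the 3 antisense-rich unstimulated libraries (those with the largest shares on noncoding genes opposite an exon), those 3 left out (chosen after seeing the data), all 12 libraries in a single fit, each library left out, and lengths of the longest transcript.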

Additional observations from a re-analysis of the deposited data

Results flagged for a closer look

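Slfn8 was marked because its genotype difference was not the same in the 2 states by a test of the difference itself. The interaction was 0.90 on the log2 scale with the line as a block (SE 0.10, adjusted p = 0.0066 by edgeR). Without the block it was 0.90 with an adjusted p of 0.0948 by edgeR. Slfn8 was at 44.1 ± 3.63 CPM in WT and 25.5 ± 3.93 CPM in ACAT1 KO unstimulated, and at 529 ± 61.6 and 571 ± 88.3 CPM with LPS (SD, n = 3 each), and the ratio of LPS to unstimulated CPM was higher in 3 of 3 ACAT1 KO lines than in every WT line. Leaving out the 3 antisense-rich unstimulated libraries gave 1.08 without the block (adjusted p = 0.157 by edgeR, with 1 unstimulated WT library left and its spread assumed to be that of the other groups), and the term for them together with the block gave 0.86. Groups of 3 are too small for a test of single libraries that stand apart.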

How the results depend on the processing

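The rise of the members with LPS was called for 6 of 6 in both genotypes under every alternative run. The order of levels per kb was the same in 4 of 4 groups with the length of the longest transcript. In unstimulated cells the 1 member called lower in ACAT1 KO became 3 with DESeq2 and 3 with all 12 libraries in a single fit, and 0 to 1 with 1 library left out. Of all genes 314 were called there, against 1721 with DESeq2, 475 with at least 10 counts in every library, 664 with a term for the 3 antisense-rich libraries, 66 without those 3 (1 WT library against 2, a fit whose spread comes from the 2 alone), 1353 with all 12 libraries in a single fit and 7 to 522 with 1 library left out. After LPS the 0 members called between genotypes became 1 with DESeq2 (Slfn3) and 0 to 2 with 1 library left out, the 2 being Slfn3 and Slfn1 without WT LPS replicate 1. Of all genes 2481 were called, and 867 to 2245 with 1 library left out. Without WT LPS replicate 1 the log2 difference after LPS turned to -0.041 for Slfn5 and -0.028 for Slfn9, whose ranges with 1 library left out reached 0.17 and 0.21. For the interaction, 0 members were called, against 3 with DESeq2 and 0 to 0 with 1 library left out. Of all genes 31 were called, against 334 with DESeq2, 11 with limma-voom, 2 without the 3 libraries and 2 to 41 with 1 library left out. The interaction of Slfn3 was -0.042 without WT unstimulated replicate 2, -0.15 without ACAT1 KO unstimulated replicate 1, -0.041 without WT LPS replicate 1 and -0.012 without ACAT1 KO LPS replicate 2, and at most 0.13 with any library left out. The cause was not tested for any of these.

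With the line as a replicate block, 1 member (Slfn8) and 288 of all genes were called for the interaction, and with the term for the 3 libraries added to the block 3 members (Slfn8, Slfn5 and Slfn2) and 457 of all genes, with Slfn3 at -0.036. Blocking on the replicate number across genotypes, where the libraries share only a number, gave 151 calls of all genes in unstimulated cells, with Slfn8 kept, and 1 member, Slfn3, after LPS. The correlation of deviations between WT and ACAT1 KO libraries of the same number ran from -0.337 to 0.650 unstimulated and from -0.0497 to 0.0756 after LPS. The block changed no other call of a member. Slfn5 and Slfn1 rest on the fewest counts of the members. Between genotypes, the interval of Slfn5 is the widest in unstimulated cells and that of Slfn1 is the widest after LPS.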
